A study of Rattus norvegicus with 14 samples.

Results

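The genes described here are the heat shock proteins, their J-domain partners and the subunits of the chaperonin CCT in colonocytes, the absorptive epithelial cells that line the colon, of rats on a normal-protein or a high-protein diet. They were chosen by name alone: every probe whose gene name began with Hspa, Hspb, Hspd, Hspe, Hsph or Hsp and a digit, with Dnaja, Dnajb or Dnajc and a digit, or with Cct2 to Cct8. Hspa5, Hsp90b1 and Dnajb9, which work in the endoplasmic reticulum, and the Hspg genes were left out. This gave 77 of the 26276 gene names on the array, measured by 97 of its 30367 probes. A gene is given by its brightest probe unless another is named, and 14 of the 77 genes had several. The names do not keep the list to the cytosol: 7 of the 77 work in mitochondria (Hspd1, Hspe1, Hspa9, Dnaja3, Dnajc11, Dnajc15 and Dnajc30) and 5 in the endoplasmic reticulum (Hspa13, Dnajb11, Dnajb12, Dnajc3 and Dnajc10), and Hspd1-ps2 and Hspd1-ps3 carry the names of pseudogenes. The other 65 are cytosolic by name or were on neither organelle list.

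Both groups were male Wistar rats with no altered gene, fed freely for 15 days a normal-protein diet (NPD) with 14% of its energy from protein or a high-protein diet (HPD) with 55%, the extra protein taking the place of digestible carbohydrate at equal energy. The labels give no age, and the study's methods describe rats a few weeks old. Colonocytes were loosened by perfusing the colon with EDTA, and total RNA of 7 rats a group was hybridised to 1-colour arrays, 1 array for each rat, so the p-values measure the spread between rats. A sample is a bulk of cells, in which fewer cells of a type and less RNA per cell cannot be told apart.

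Chaperones bind proteins that are not yet folded or have lost their fold. Hsp70 binds short exposed stretches and lets them go again as it turns over ATP, J-domain proteins bring the clients and start that turnover, and Hsp110 resets the cycle by exchanging the nucleotide. Hsp90 takes over clients that are almost folded, many of them kinases and receptors, small heat shock proteins hold unfolded clients without using ATP, and CCT, a double ring of related subunits, encloses actin, tubulin and other proteins while they fold. Heat shock factor 1 switches on the inducible members when unfolded proteins accumulate. The colonic epithelium is renewed within days and makes proteins at a high rate, and most of these chaperones are present in it without stress.

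The cells carried epithelial markers. All 10 colonocyte markers and all 6 goblet cell markers were well above background on every array, and the summed colonocyte signal was 6023 to 6885 times the array's median probe in the NPD group and 5370 to 7970 times in the HPD group (exact permutation p = 0.802). The summed level of the immune list was 9.13 to 21.1 and 9.69 to 14.1, with 4 of 7 genes well above background, and that of the stromal and muscle list 12.4 to 27.2 and 11.1 to 21.6, with 6 of 9. Of the red blood cell list 1 of the 3 genes on the array was well above background, and its summed level was 36.1 to 61.0 in the NPD group and 45.7 to 151 in the HPD group (exact permutation p = 0.00874). Single genes within a sum ran in opposite directions, as in the goblet cell list, where Spink4 was at 1.82 and Agr2 and Clca1 at -0.63 and -0.56 (log2 fold change, exact permutation p = 0.00408, 0.0303 and 0.0571), with 0 of these past the threshold. The part of blood, goblet and other cells in the results was not tested. By the barcode in the header of each scanner file the arrays lay on 2 slides, with NPD rats 1 to 4 and HPD rats 1 to 3 on the first. The median spot signal was 89.7 to 179 over the arrays, and 18839 to 20976 probes were well above background.

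Several chaperone genes have probes at different places in the transcript. For the CCT genes and some others the place of a probe is given beside its values. To set the values against it, a measure was taken from other genes on each array: the level of the probe nearest the start of a transcript minus that of the probe nearest its end, as the median over 1039 transcripts of other genes with probes at least 500 bases apart. It was between -2.64 and -2.23 in the NPD group and between -2.70 and -2.21 in the HPD group (log2), with a mean HPD minus NPD difference of -0.14 (exact permutation p = 0.101 over all splits and 0.0351 over regroupings within slides). It differed between the slides, with means of -2.36 and -2.60.

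The sequences below are those of the CCT probes, since the result for the chaperonin divides by probe. Each line gives the gene, the base of the transcript at which the probe starts, and its place in the rn4 genome. Every probe has 60 bases. Those starting at base 1407 or before are given whole, and of the others the first 30 bases are given. The Cct4 and Cct5 probes cover more genome than their own length, so they cross from one exon into the next.
Cct5, base 847, chr2:83684929-83685411, minus strand: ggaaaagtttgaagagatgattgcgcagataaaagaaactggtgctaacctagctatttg
Cct4, base 1011, chr14:103684405-103685077, plus strand: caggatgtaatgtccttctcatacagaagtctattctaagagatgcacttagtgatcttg
Cct2, base 1060, chr7:56395779-56395838, minus strand: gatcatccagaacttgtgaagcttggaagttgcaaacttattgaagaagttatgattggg
Cct6a, base 1407, chr12:28000956-28001015, plus strand: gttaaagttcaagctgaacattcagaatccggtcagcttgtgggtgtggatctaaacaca
Cct3, base 1761, chr2:180434037-180434096, plus strand: ttgaggggcagcccccagtctgtcccatct
Cct6a, base 1920, chr12:28002513-28002572, plus strand: taaggcatggcgattcctgcctgtaagcct
Cct7, base 1978, chr4:119722155-119722214, plus strand: attattccacgacagctgtgtgacaacgct
Cct8, base 2372, chr11:27233799-27233858, minus strand: tgtcaagaactaccacccagtcagtttagt

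No chaperone gene differed between the diets at the threshold of an adjusted p below 0.1 in limma. Of the 77 genes 0 passed, against 0.0533% of all genes, and the smallest adjusted p among them was 0.417. With the slide as a block again 0 passed, against 0.0913% of all genes, and the smallest adjusted p was 0.187. At an unadjusted p under 0.05 in limma, 8 of 77 (10.4%) were lower in the HPD group, against 5.48% of all genes, and 2 (2.6%) were higher, against 6.05%. A narrower count kept only genes that stood well above background in all 7 rats of 1 diet or both. By it 7 of 61 chaperone genes (11.5%) were lower at that p, against 8.29% of 16060 genes. Higher was 1 (1.64%), against 5.57%. The share of lower genes thus lay closer to that of all genes in the narrower count, and the share of higher genes did not. The part of signal level in this was not tested. In 0 of the 77 did the 7 HPD values and the 7 NPD values not overlap, against 0.282% of all genes. Of the 77, 60 were well above background on every array, 12 on some arrays and 5 on none. The 8 lower genes were Cct2, Cct4, Cct5, Dnajb2, Dnajb5, Dnajc3, Dnajc4 and Hspd1-ps3. The 2 higher genes were Hspb2 and Hspa1l, an Hsp70 of the testis that was well above background on 1 array.

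By direction, 29 of the 77 (37.7%) lay below 0, that is lower with the HPD, beside 35% of all genes, and the median log2 fold change was 0.09 over the list and 0.11 over all genes. By the narrower count 39.3% of the chaperone genes and 41.8% of all genes were lower, with medians of 0.08 and 0.06. Which share was the larger thus depends on the genes counted. The shares and the medians also depend on the scaling. After cyclic loess 42.9% of the list and 48.8% of all genes were lower, with medians of 0.05 and 0.01. With normexp background correction the shares were 51.9% and 37.3%, and with the values normalized by the authors 54.5% and 41.4%, with list medians of -0.0038 and -0.019. By family, the 9 CCT genes had the lowest median, -0.21, with 5 lower. The 4 Dnaja genes were all lower, by little, with a median of -0.05. Medians were 0.02 over 9 Hsp70 genes, 0.17 over 3 Hsp110 genes, 0.09 over 2 Hsp90 genes, 0.19 over 8 small heat shock proteins, 0.19 over 2 mitochondrial chaperonin genes, 0.19 over 11 Dnajb genes and 0.10 over 25 Dnajc genes. The 7 mitochondrial members had a median of -0.03 with 4 lower, and the 5 members of the endoplasmic reticulum one of -0.21 with 3 lower.

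**Figure D1:**
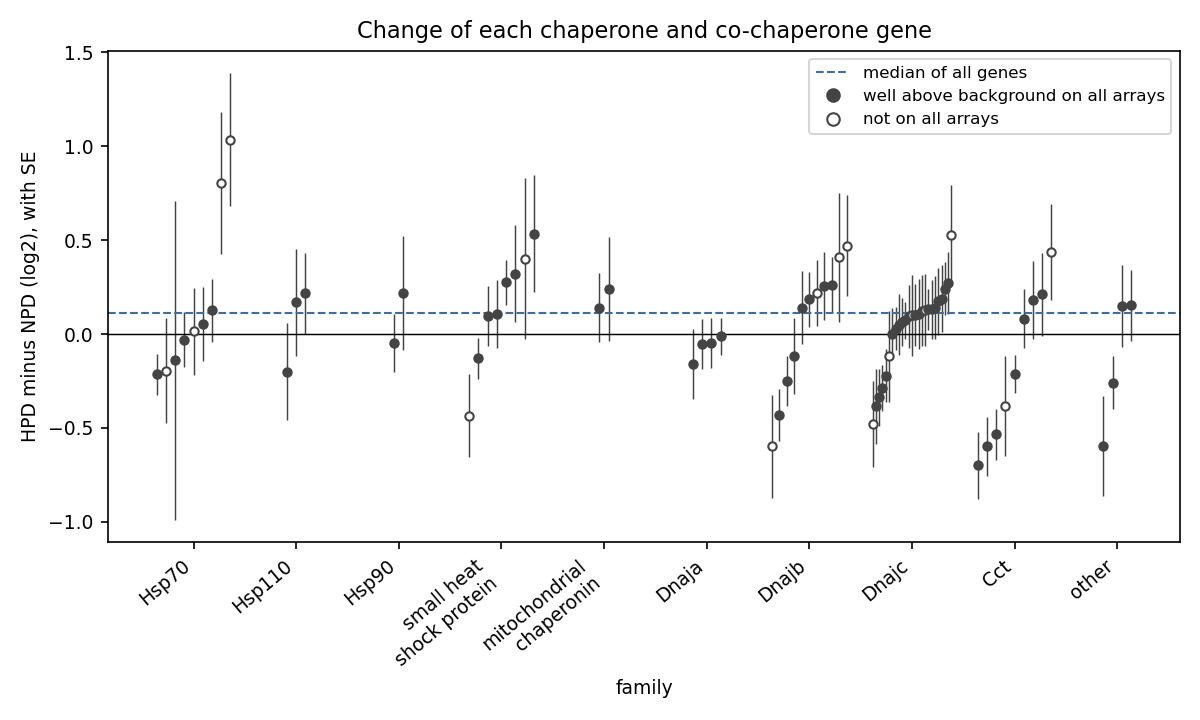
Difference between the diets (HPD minus NPD, log2, vertical axis, bars showing the standard error) for each of the 77 genes by its brightest probe, arranged by family along the horizontal axis; filled points were well above background on all 14 arrays and the dashed line is the median of all genes, 0.11. The CCT family runs from -0.70 to 0.44, and the highest points of the Hsp70 family are genes not well above background on all arrays.

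Cct2 had the lowest value of the whole list, and of the 5 lowest genes 3 belonged to the CCT ring, the others being Dnajb5 and Hspd1-ps3. Cct2, Cct4 and Cct5 encode subunits that stand side by side with the others in every ring, so a ring needs each of them. The Cct2 probe at base 1060 read 4.26, 4.55 and 4.85 (lowest, median and highest log2 level relative to the array's median probe) in the NPD group and 3.35, 3.96 and 4.55 in the HPD group. Of the 7 HPD rats 6 were below the lowest NPD rat, and HPD rat 1 lay close to the NPD median. The log2 fold change was -0.70 ± 0.18 (SE, n = 7 and 7, 95% interval -1.08 to -0.32), a ratio of 0.616, with limma's adjusted p = 0.417 and an exact permutation p of 0.00291 (0.000816 within slides).

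Cct4, by the probe at base 1011, read 3.89, 4.22 and 4.51 in the NPD group and 3.23, 3.67 and 4.18 in the HPD group. Cct5, by the probe at base 847, read 4.88, 5.15 and 5.40 in the NPD group and 4.25, 4.60 and 4.96 in the HPD group. In both genes 6 HPD rats were below the lowest NPD rat, and the rat above it was again HPD rat 1. The log2 fold changes were -0.60 ± 0.16 for Cct4 and -0.53 ± 0.14 for Cct5 (SE), with exact permutation p-values of 0.0035 and 0.00175 (0.000816 within slides for both). Neither passed limma's adjustment (adjusted p = 0.417 for both). The difference had the same sign on each slide: -0.48 and -0.80 for Cct2, -0.49 and -0.58 for Cct4, -0.36 and -0.62 for Cct5. Without HPD rat 1 these 3 genes, with log2 fold changes of -0.81, -0.69 and -0.60, passed the threshold (adjusted p between 0.0930 and 0.0976 in limma), against 0.499% of all genes in that fit.

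For the other subunits of the ring the difference lay nearer 0 or on the other side of it. The difference between subunits was not tested, since they were read in the same rats. Cct3, by its probe at base 1761, read 7.56, 8.04 and 8.55 in the NPD group and 7.62, 8.34 and 8.92 in the HPD group, so the groups overlapped over almost all of their range. Its log2 fold change was 0.21 ± 0.22 (95% interval -0.26 to 0.68, exact permutation p = 0.365). Cct8, at base 2372, read 0.95, 1.21 and 1.77 against 1.13, 1.35 and 1.94, a log2 fold change of 0.08 ± 0.16 (exact permutation p = 0.588). Tcp1, the remaining subunit, whose name falls outside the rule, had one of 0.13 ± 0.20 with a probe at base 1770 (exact permutation p = 0.534). Cct7 lay in between: its probe at base 1978 read 5.74, 6.06 and 6.11 in the NPD group and 5.55, 5.79 and 5.98 in the HPD group. All 7 HPD rats were below the NPD mean of Cct7, with a log2 fold change of -0.21 ± 0.10 and an exact permutation p of 0.0146, and limma's adjusted p was 0.441. Cct6b and Cct8l1, relatives of ring subunits, were not well above background on any array.

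**Figure D2:**
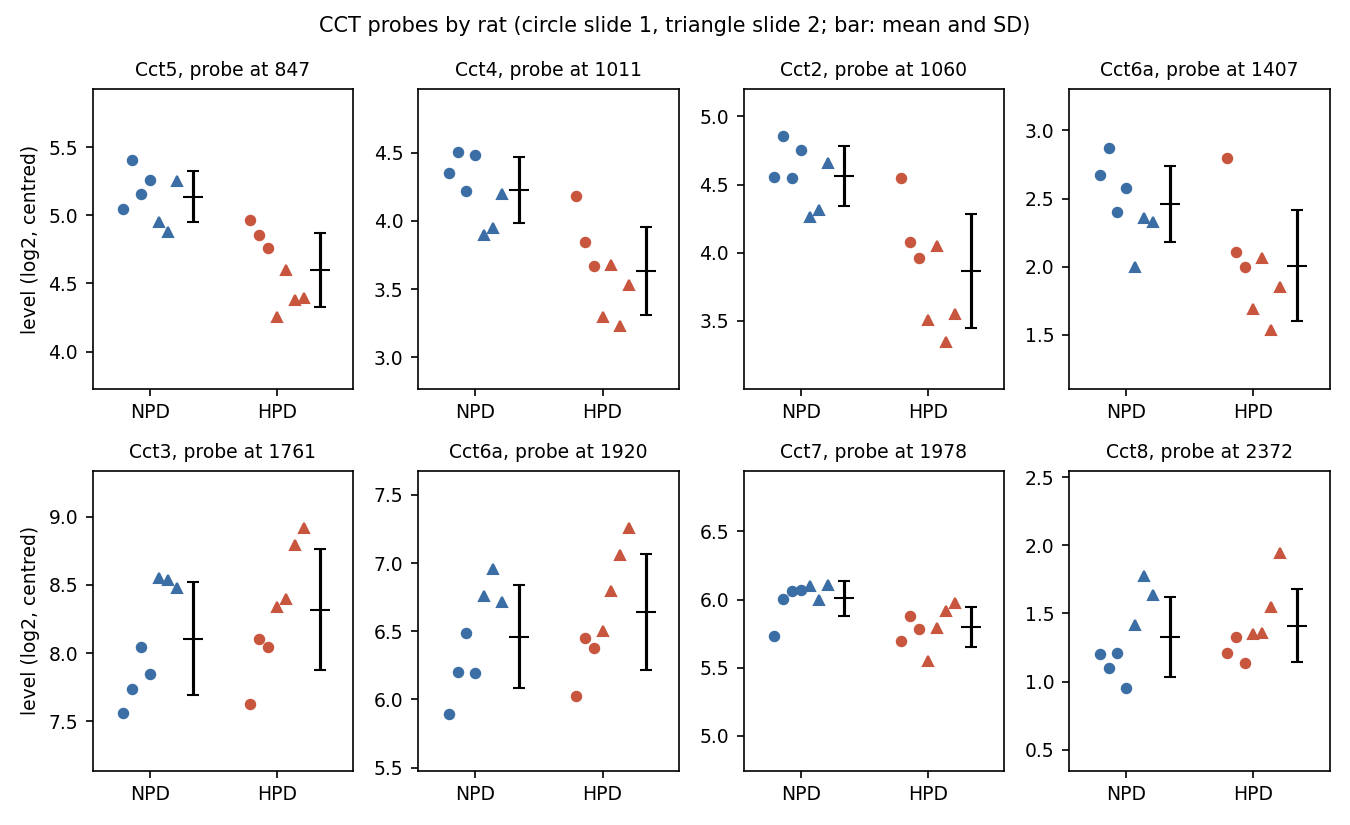
Level of each CCT probe (log2 relative to the array's median probe, vertical axis) in each of the 7 NPD and 7 HPD rats, with the mean and SD beside the points, circles for the first slide and triangles for the second, and panels ordered by the probe's start in the transcript. HPD rat 1, the first red point, is the only HPD rat at or above the lowest NPD rat for Cct2, Cct4 and Cct5, and the groups overlap throughout for Cct3 and Cct8.

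Cct6a was measured at both ends of the division. Its probe at base 1407 read 2.0, 2.40 and 2.87 in the NPD group and 1.54, 2.0 and 2.80 in the HPD group, which gave a log2 fold change of -0.45 ± 0.18 (exact permutation p = 0.0344). Its probe at base 1920, the brighter, read 5.90, 6.49 and 6.95 against 6.03, 6.51 and 7.26, a log2 fold change of 0.18 ± 0.21 (exact permutation p = 0.41). The same gene in the same rats thus gave a lower value in the HPD group by one probe and a slightly higher one by the other, with groups that overlapped at both. The probes of Cct2, Cct4, Cct5 and Cct6a that were lower all started at base 1407 or before, and those of Cct3, Cct6a, Cct8 and Tcp1 that were not started at base 1761 or after. Cct7 was the exception, with a lower value at base 1978.

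Each CCT probe was set against the difference between upstream and downstream probes of other genes, over the 14 rats. The 4 probes nearest the start were higher where it was higher: Pearson's r was 0.76 for Cct5, 0.86 for Cct4, 0.83 for Cct2 and 0.95 for the Cct6a probe at base 1407, with Spearman's rho of 0.80, 0.86, 0.84 and 0.96 (permutation p = 0.00209, 8e-05, 0.00037 and 1e-05 for r, and 0.001, 2e-04, 0.00039 and 1e-05 for rho; 1e-05 is the smallest the permutations can give). The probes farther along went the other way, with r of -0.90 and rho of -0.87 for Cct3, -0.85 and -0.83 for the Cct6a probe at base 1920, and -0.60 and -0.65 for Cct8 (permutation p = 3e-05 and 9e-05, 0.00019 and 0.00042, and 0.024 and 0.0129). For Cct7 r was -0.04 and rho -0.00 over all rats (permutation p = 0.879 and 1). Its r was -0.53 within the NPD group and -0.46 within the HPD group, but -0.09 and 0.17 within the slides. The direction of the other probes farther along was thus seen within diets and not on both slides. Over the 8 relations the Benjamini-Hochberg adjusted p was at most 0.0274 for r and 0.0147 for rho in all but Cct7. The measure itself followed the first principal component, the main axis of difference between the arrays over all measured probes (r = -0.94). Large r values were not particular to CCT: r was 0.98 for Dnajc11 at base 1420 and -0.98 for Dnajb12 at base 2901. Nor did the start base set the sign of r in every chaperone gene. For Dnaja3 at base 237 r was -0.84, and for Hspb2 at base 471 -0.69. For Dnajb2 r was -0.14 at base 447 and 0.78 at base 1275.

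Without the 2 rats farthest from the median of the measure, HPD rat 1 and NPD rat 2, r was 0.77, 0.87, 0.82 and 0.92 for the 4 upstream probes in the same order, -0.86 and -0.82 for Cct3 and the downstream Cct6a probe, 0.08 for Cct7 and -0.54 for Cct8. Within the slides it was between 0.63 and 0.99 for the upstream probes, and between -0.89 and -0.48 for Cct3 and the downstream Cct6a probe. For Cct8 it was -0.24 and 0.06 within the slides and -0.61 and -0.60 within the NPD and HPD groups, so its relation held within diets and not within slides. With the measure added to the limma fit as a covariate, chosen after seeing these values, the log2 fold change was -0.44 for Cct2, -0.36 for Cct4, -0.38 for Cct5 and -0.28 for Cct7 (unadjusted p = 0.0034, 0.0034, 0.0048 and 0.0108), and -0.16 for Cct3, -0.15 for Cct6a at base 1920 and -0.08 for Cct8. These 7 ring genes, each by its brightest probe, were all negative in that fit. For Cct3, Cct6a and Cct8 the unadjusted p in limma was 0.218, 0.299 and 0.595, with standard errors of 0.12, 0.13 and 0.14. The sign of these last genes is therefore uncertain. The Cct6a probe at base 1407 and Tcp1 are not given for that fit. In the same fit 55 of the 77 chaperone genes were lower beside 52.8% of all genes, and the smallest adjusted p among the 77 was 0.525. The part of probe position in the CCT values beyond this fit was not tested.

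**Figure D3:**
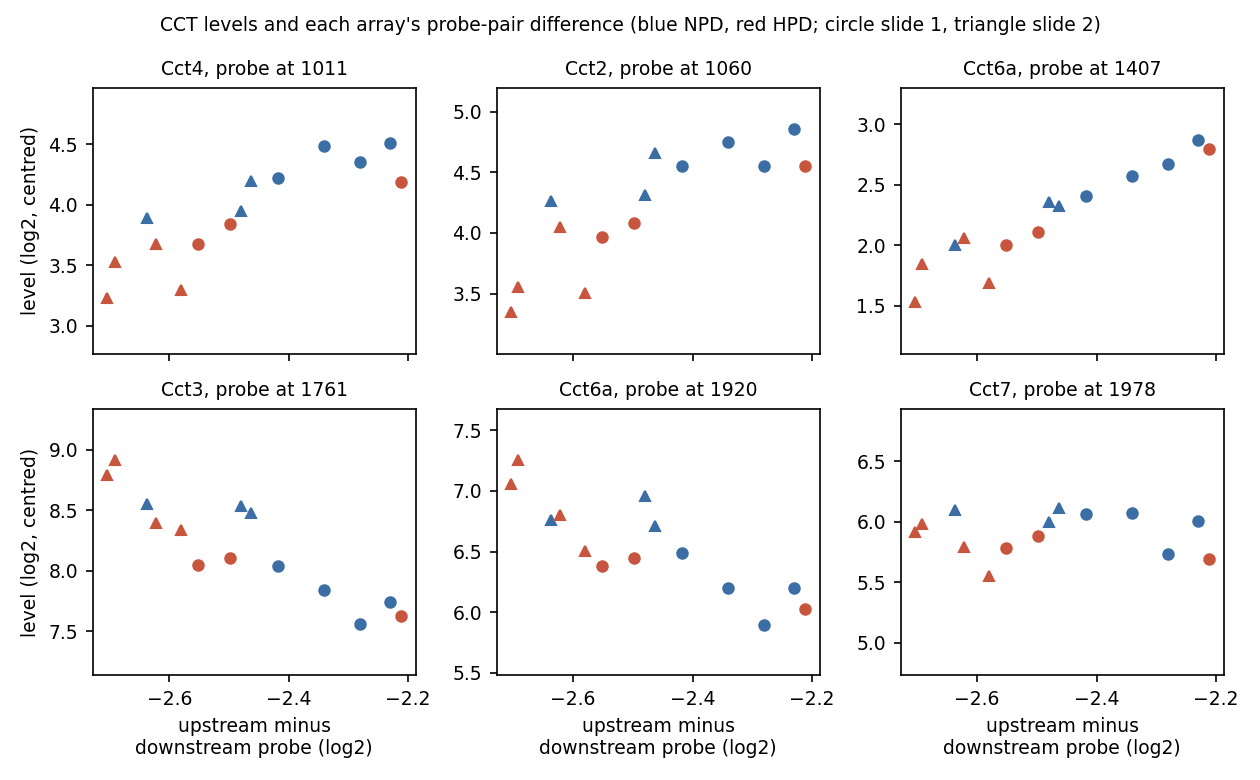
Level of 6 CCT probes (log2, vertical axes of equal length) against the median upstream minus downstream probe difference of 1039 other transcripts (log2, horizontal axis) in 14 rats, blue for NPD and red for HPD, circles for the first slide and triangles for the second. Points rise from left to right for the Cct6a probe at base 1407 (r = 0.95) and fall for the Cct3 probe (r = -0.90).

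Hspa8, the Hsc70 present in every cell, was measured by 4 probes. By the brightest, at base 1860, it read 9.82, 10.01 and 10.88 in the NPD group and 9.81, 10.10 and 10.71 in the HPD group. Its log2 fold change was 0.05 ± 0.20 (95% interval -0.36 to 0.47, exact permutation p = 0.782). The groups overlapped over their whole range. Its probe at base 1800 gave -0.04, and those at bases 523 and 483 gave -0.29 and -0.24 (exact permutation p = 0.182 and 0.252). The last 2 are not independent of each other, since they share 20 bases of the transcript, given in capitals:
Hspa8, base 523: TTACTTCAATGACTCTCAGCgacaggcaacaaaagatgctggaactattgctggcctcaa
Hspa8, base 483: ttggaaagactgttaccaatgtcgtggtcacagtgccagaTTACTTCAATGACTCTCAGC

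The 2 cytosolic Hsp90 genes, which hand on kinases and receptors in an almost folded state, showed no called difference. Hsp90aa1, the inducible form, had log2 fold changes of 0.22 ± 0.30, 0.35 and 0.11 by its probes at bases 2648, 1575 and 2397. Hsp90ab1, the form present without stress, had -0.05 ± 0.15, -0.33 ± 0.12 and -0.08 at bases 2397, 2082 and 1469. The middle of these was the lowest reading of either gene, with all 7 HPD rats below the NPD mean and 4 of them below the lowest NPD rat (exact permutation p = 0.00758), while the brighter probe of the same gene had an exact permutation p of 0.749. Over the 10 chaperone genes with several measured probes, at whatever distance, the upstream probe had the lower log2 fold change in 7 (70.0%), beside 636 of 1039 transcripts of other genes (61.2%). Hsp90ab1 is among the 7, but its probe at base 2397 is numbered on another transcript record than those at 2082 and 1469. The order of its probes is therefore uncertain.

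**Figure D4:**
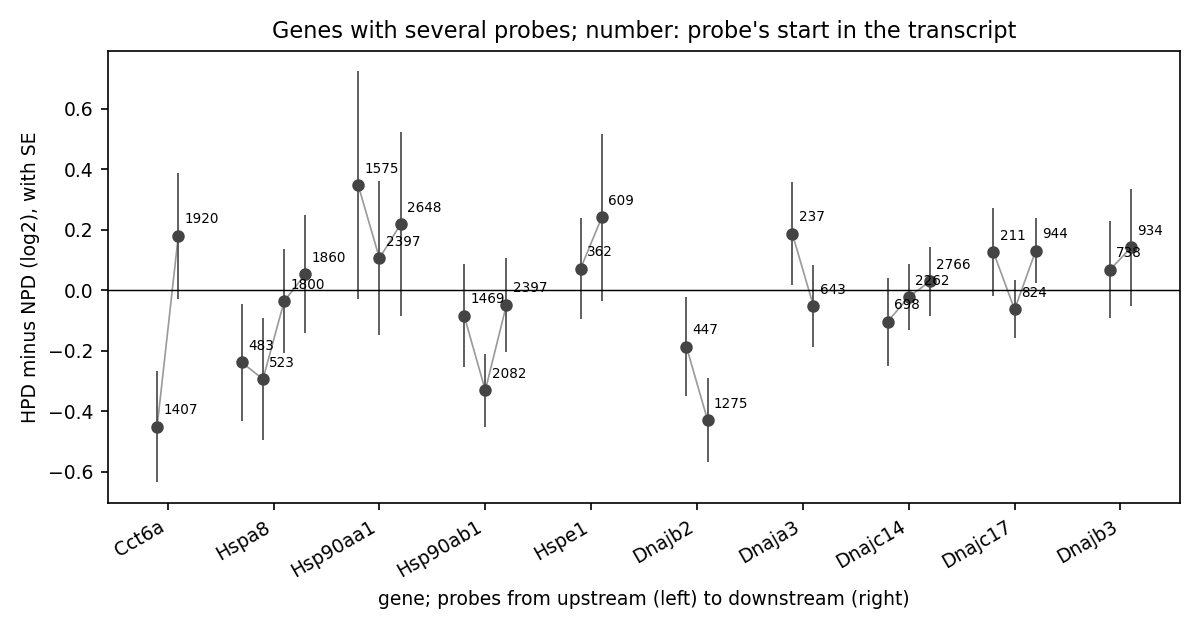
Difference between the diets (HPD minus NPD, log2, vertical axis, bars showing the standard error) for the measured probes of the 10 chaperone genes that have several, with each gene's probes running from the upstream one at the left to the downstream one at the right and labelled by the base at which they start. Cct6a runs from -0.45 to 0.18 and Hspa8 from -0.24 to 0.05, while Dnajb2 runs the other way. The Hsp90ab1 probe at base 2397 is numbered on another transcript record than the rest of that gene's probes.

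Hspa1b, the heat-inducible Hsp70 of the cytosol, differed more between rats than any other chaperone measured on every array, and its diet difference was small beside that spread. Its brighter probe starts at base 4229 of its transcript, at chr20:3957864-3957923 on the plus strand of rn4, and the first 30 bases of this probe are ctcgtgggttttttatatattcaaattaag. The other Hspa1b probe, at base 5858, was well above background on 0 arrays and is not used here. The gene's near-identical copy Hspa1a has no probe by that name, and the RefSeq table of GRCr8 lists Hspa1b as another name of Hspa1a, so the copy measured is uncertain. Its level was 2.13, 3.45 and 7.20 in the NPD group and 1.31, 3.88 and 6.97 in the HPD group. NPD rat 7 and HPD rat 1 were the highest and HPD rat 7 the lowest, and the distance between the extremes was 5.90 on the log2 scale, a 59.6-fold difference. The diet difference was -0.14 ± 0.85 (95% interval -1.95 to 1.67, exact permutation p = 0.883), and it was 1.58 on one slide and -1.90 on the other. The SD within diets was 1.76, against a median of 0.30 over 15289 genes well above background, of which 9 had a larger one. The next chaperone, Hspb9, had an SD of 0.63.

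The other heat-inducible chaperones did not span such a range. Dnajb1, the J-domain partner that loads clients on Hsp70 in heat-shocked cells, read 4.64, 4.82 and 5.94 in the NPD group and 4.35, 4.88 and 5.32 in the HPD group (log2 fold change -0.12 ± 0.20, exact permutation p = 0.627). Its highest value was that of NPD rat 7, the rat with the most Hspa1b. Dnaja1 read 4.99, 5.49 and 6.19 against 4.91, 5.38 and 5.99 (exact permutation p = 0.412), and Hsph1, the inducible Hsp110, 0.27, 0.42 and 1.51 against -0.06, 0.37 and 1.11 (exact permutation p = 0.476). The groups overlapped in all of these.

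**Figure D5:**
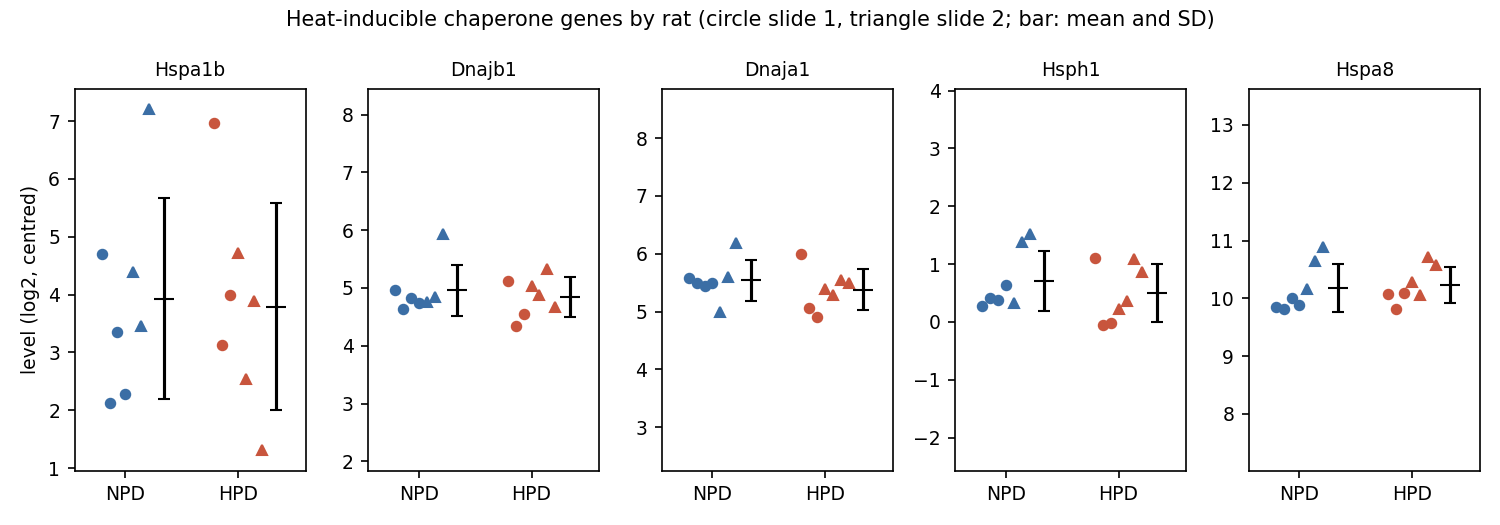
Level of Hspa1b, Dnajb1, Dnaja1, Hsph1 and Hspa8 (log2 relative to the array's median probe, vertical axes of equal length) in each of the 14 rats by diet, with the mean and SD beside the points, circles for the first slide and triangles for the second. Hspa1b ranges from 1.31 to 7.20 with its highest rats in both diets, and the others span narrower ranges.

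Over the 14 rats, Hspa1b was set against the other 12 measured genes of a list of textbook heat shock factor targets. Dnajb1 had the highest correlation with it, with r of 0.71 and rho of 0.67 (permutation p = 0.00523 and 0.0108). Adjusted over the 12 relations these were 0.0628 and 0.130. Without NPD rat 7 and HPD rat 1, the 2 rats farthest from the median, r was 0.40, so the relation rests in part on them, and within the slides r was 0.68 and 0.84. For Dnaja1 r was 0.54 and rho 0.30 (permutation p = 0.0485 and 0.302), and r was -0.22 without these 2 rats, on which that relation rests. For Hsph1 r was 0.36 and for Hspa8 0.28. The 14 genes of the list on the array had a median log2 fold change of 0.08 between the diets with 5 lower, beside 0.11 for all genes, and 0 passed the threshold.

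The promoters of the chaperone genes were searched for the heat shock element, the site that heat shock factor binds. The letters searched were GAANNTTCNNGAA or TTCNNGAANNTTC, which are each other's reverse complement, so that both strands were read, in the 250 bases before and 50 after each gene's start in RefSeq (GRCr8). Of 33469 promoters 267 held it (0.798%). A promoter was matched to 60 of the 77 chaperone genes, and 6 of them (10.0%) held it: Hspa8, Hsph1, Hspd1, Hspe1, Dnaja1 and Cct4. Hspa1b and Hsp90aa1 were among the 17 genes with no matched promoter and were not searched, and the window of Hspa1a held 0 matches. Hspd1 and Hspe1, which encode the mitochondrial chaperonin and its lid, are transcribed away from each other from the same stretch, and their matches are the same bases. The matches of Dnaja1 and Cct4 lay after the start, and those of the other genes before it. The stretch before the start of 3 of the 6 genes is shown, with the match in capitals. Hspa8 has a further match at base -213 from the start, which is not shown. A match describes these letters and is not a measured binding site.
Hsph1, chr12:10427297-10427367, plus strand: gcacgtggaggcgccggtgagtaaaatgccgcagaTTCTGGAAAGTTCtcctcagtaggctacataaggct
Hspe1, chr9:64084227-64084314, plus strand: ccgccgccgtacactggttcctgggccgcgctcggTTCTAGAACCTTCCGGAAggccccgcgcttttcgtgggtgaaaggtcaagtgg
Hspa8, chr8:50080424-50080506, plus strand: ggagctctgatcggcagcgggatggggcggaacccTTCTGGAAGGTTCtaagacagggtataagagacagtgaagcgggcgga

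In Hspe1 overlapping matches run on into a longer stretch of capitals. The 6 genes with a match had log2 fold changes of 0.05 (Hspa8), -0.20 (Hsph1), 0.14 (Hspd1), 0.24 (Hspe1), -0.16 (Dnaja1) and -0.60 (Cct4), so they had no direction in common.

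Among the J-domain proteins the lowest value of a gene measured on every array was that of Dnajb2, which carries clients of Hsp70 to the proteasome. Its probe at base 1275 read 2.50, 2.79 and 2.96 in the NPD group and 1.93, 2.30 and 2.84 in the HPD group. Of the 7 HPD rats 5 were below the lowest NPD rat. The log2 fold change was -0.43 ± 0.14 (ratio 0.742, limma's adjusted p = 0.417), the exact permutation p was 0.00758 (0.00245 within slides), and its other probe, at base 447, gave -0.19. The lower value was thus at the probe nearer the end, the opposite of Cct6a. With the upstream minus downstream measure as a covariate, the log2 fold change at base 1275 was smaller in size, -0.26 ± 0.11 (SE).

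Dnajc3, which restrains the kinase PERK and assists Hspa5 in the endoplasmic reticulum, read 5.23, 5.57 and 5.77 in the NPD group and 5.00, 5.32 and 5.67 in the HPD group (log2 fold change -0.29 ± 0.12, exact permutation p = 0.0216). Dnajc4 read 3.16, 3.60 and 3.76 against 2.81, 3.12 and 3.73 (log2 fold change -0.34 ± 0.15, exact permutation p = 0.0431). The groups overlapped in both, and limma's adjusted p was 0.421 for Dnajc3 and 0.432 for Dnajc4. With the same covariate their log2 fold changes were smaller in size, -0.19 ± 0.11 for Dnajc3 and -0.12 ± 0.11 for Dnajc4 (SE). The cause of this was not tested. The other 23 Dnajc genes were between -0.48 and 0.53, and Dnajc22, the brightest, read 7.22, 7.60 and 8.0 against 7.21, 7.84 and 8.24. Dnajb5, the remaining J-domain gene under an unadjusted p of 0.05, was well above background on 6 arrays, and Dnaja2 and Dnaja4, J-domain partners of Hspa8, had values of -0.01 and -0.05.

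Of the small heat shock proteins, which hold unfolded clients until Hsp70 can act, Hspb2 was the higher gene with the smallest p of those measured on every array. It read 3.47, 3.67 and 4.12 in the NPD group and 3.83, 3.94 and 4.34 in the HPD group, and all 7 HPD rats were above the NPD mean. The log2 fold change was 0.28 ± 0.12 (ratio 1.21, limma's adjusted p = 0.425), with an exact permutation p of 0.0186. It was 0.17 ± 0.11 (SE) with the upstream minus downstream measure as a covariate. Hspb2 is best known from muscle, and the summed stromal and muscle list gave an exact permutation p of 0.33 between the groups. Single genes of that list ran both ways, with Col1a1 at 0.35 (exact permutation p = 0.00466) and Myh11, a smooth muscle myosin, at -0.48 (exact permutation p = 0.0291). Their part in the result was not tested. Hspb1, the common epithelial form, had a log2 fold change of 0.09 (exact permutation p = 0.546), and Hspb8 one of -0.43 (exact permutation p = 0.0781), measured on 13 arrays.

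The mitochondrial members gave no called difference. Hspd1, the mitochondrial chaperonin, had a log2 fold change of 0.14 ± 0.18, its lid Hspe1 0.24 ± 0.28 and Hspa9, the mitochondrial Hsp70, -0.03 ± 0.15. Hspd1 and its pseudogene Hspd1-ps2, at 0.15, are read by probes with 23 bases in common, so signal of one may be counted for the other and both are uncertain. Hspd1-ps3 read 2.76, 3.37 and 4.11 in the NPD group and 2.22, 2.75 and 4.08 in the HPD group (log2 fold change -0.60 ± 0.27, exact permutation p = 0.0583), with 4 of 7 HPD rats below the lowest NPD rat and HPD rat 1 close to the highest. Its log2 fold change shrank to -0.15 ± 0.15 (SE) with the upstream minus downstream measure as a covariate. In Hspd1, Hspe1 and Hspa9 the groups overlapped over most of their range. Hspa4, of the Hsp110 family, had a log2 fold change of 0.17.

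Of 33 listed partners of these chaperones 30 were on the array, and 0 passed the threshold. Their log2 fold changes had a median of 0.05, and 14 of the 30 (46.7%) were negative, beside 35% of all genes. At an unadjusted p under 0.05 in limma 5 of the 30 (16.7%) were lower and 0 higher, beside 5.48% and 6.05% of all genes. The narrower count by background held 28 of the 30 partners. Of all genes in it 41.8% were negative, and 8.29% were lower and 5.57% higher at that p. Stip1, which links Hsp70 to Hsp90 and passes clients on, read 2.49, 2.73 and 3.01 in the NPD group and 2.0, 2.07 and 2.90 in the HPD group (log2 fold change -0.51 ± 0.15, exact permutation p = 0.00758). St13, which steadies Hsp70 with its client, had a log2 fold change of -0.34 (exact permutation p = 0.0111), and Bag1, which makes Hsp70 release it, -0.37 (exact permutation p = 0.0181). Unc45a, a myosin and Hsp90 partner, had -0.29, and Pfdn6, a subunit of prefoldin, which delivers actin and tubulin to CCT, had -0.37 (exact permutation p = 0.014 and 0.0495). The other prefoldin subunits on the array, Pfdn1, Pfdn2 and Pfdn5, were at -0.05, -0.01 and -0.18. Hsf1, the factor behind the heat shock response, was at -0.06.

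The number of chaperone genes that passed differed with the background treatment, and with the slide block when the authors' values were used. With normexp background correction 12 of the 77 (15.6%) passed, against 16.9% of all genes. With the normalized values of the authors 0 of the 77 passed, against 0.0681% of all genes, and with the slide as a block 13 of the 77 (16.9%), against 10.5%. Cct2, Cct4, Cct5, Cct7, Dnajb2, Dnajb11, Dnajc3, Dnajc4 and Hspa13 were lower and passed in both the first and the last of these. Hspa1l and Dnajc5b were higher and also passed in both.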

How the data were processed

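RNA of colonocytes from 7 NPD and 7 HPD rats was measured, 1 array for each rat, and diet and replicate number were taken from the labels. The authors deposited scanner output from Agilent Feature Extraction 10.7.3.1 (named in the submitters' processing notes), with an intensity per spot on a linear scale, background-subtracted by the scanner software, and also their own normalized log2 values, 1 for each gene name and array, which served as an alternative here. The outlier samples left out by the authors were not analysed here.

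From the intensities, control spots and spots marked as outliers (320 to 461 of 62976 per array) were left out, log2 was taken, spots of a probe were averaged and each array was centred on its median over 30367 probes. The HPD and NPD arrays were then fitted by limma 3.58.1 (R 4.3.3), using lmFit and eBayes with diet as the sole term, and p-values were adjusted by Benjamini-Hochberg over all probes, with a threshold of 0.1. Files were read with the R package data.table (version 1.17.8). Single genes were compared with two-sided exact permutation tests over the 3432 splits of the rats into 7 and 7, whose smallest p is 0.0006, and over 1225 regroupings within slides. Correlations used 100000 permutations. No probe was removed for low signal, and a probe is called well above background by the scanner software's mark. The number of arrays limits the precision.

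The members, the lists and the tests were chosen with earlier results of these data known. Genes named with values were 19 core chaperones on the array of 20 listed, members that passed or did not overlap between groups, the 10 smallest p among members well above background on every array of a group, and the brightest of each family. The partners and a few further members were named after their values were seen. Alternatives covered the background, the centring, the normalization, the choice of probe, the slide and the replicate number as blocks, leaving out each rat, and the deposited table. Sequences are from the scanner files (rn4) and RefSeq (GRCr8).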

Additional observations from a re-analysis of the deposited data

Results flagged for a closer look

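In 4 of the 56 groups examined (28 named genes in each diet) 1 rat lay far from the others of its group by Dixon's criterion for 7 values, which chance does in about 1 of 20 groups. Dnajb1 was 5.94 in NPD rat 7, with the next NPD rat at 4.96, and its log2 fold change of -0.12 was 0.05 without that rat. Cct7 was 5.74 in NPD rat 1, below the next rat at 5.99, and its log2 fold change of -0.21 was -0.26 without it. Hspd1-ps3 was 4.08 in HPD rat 1, with the next HPD rat at 2.88, and its log2 fold change of -0.60 was -0.81 without it. Dnajb3 was 6.32 in NPD rat 3, with the next rat at 5.58, and its log2 fold change of 0.14 was 0.27 without it. The values are log2 levels relative to the array's median probe.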

How the results depend on the processing

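The number of chaperone genes past the threshold was 0, and it was 12 with normexp background correction and 13 with the deposited table and the slide as a block (an alternative chosen after seeing the data). Leaving out 1 rat at a time it was 0 to 3, with the 3 (Cct2, Cct4 and Cct5) without HPD rat 1. The number lower in the HPD group was 29, and 40 with normexp, 42 with the deposited table, 50 with the deposited table and the slide block, 55 with the upstream minus downstream covariate (also chosen after seeing the data), and 27 to 34 without single rats. The median log2 fold change was 0.094, and 0.02 to 0.13 without single rats, but it turned negative with normexp (-0.0038), the deposited table (-0.019, and -0.050 with the slide block) and the covariate (-0.11). With the replicate number as a replicate block, 0 of the 77 passed, 29 were lower, the median was 0.09 and the smallest adjusted p was 0.178. Rats with the same number had r between 0.14 and 0.67 in the 6 pairs that share a slide and -0.16 in pair 4, which does not, and 1 of the 7 pairs was its own best match. The labels name nothing shared by a number, so the numbers were not taken as pairs. The cause of these differences was not tested.

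Of the named genes' values under alternatives, 739 kept direction and side of the threshold, 19 passed it anew and 54 turned sign. Hspa8 (0.053) was -0.041 and -0.031 with mean and median pixel signals, -0.084 with normexp, -0.020 centred on the mean, -0.11 after quantile normalization and cyclic loess, -0.025 with the slide block, -0.29 with the deposited table and -0.13 as a mean of probes. With normexp Hspd1 was -0.011, Cct8 -0.0038, Hspd1-ps2 -0.0034 and Dnajb3 -0.0069. With the deposited table Hspd1 was -0.019, Cct8 -0.019, Dnajb3 -0.051 and Cct6a -0.16. As a mean of probes Cct6a was -0.14 and Hspa1b 0.062. The Hspa1b mean takes in its probe at base 5858, which was not well above background on any array. With the deposited table and the slide block Hspa8 was -0.30, Hspd1 -0.049, Cct8 -0.050, Hspd1-ps2 -0.044, Dnajb3 -0.014, Cct6a -0.17, Hspa4 -0.082, Hsp90aa1 -0.051, Hspe1 -0.058, Cct3 -0.016 and Dnajc22 -0.0085. With the covariate Hspa8 was -0.14, Hspd1 -0.083, Cct8 -0.078, Hspd1-ps2 -0.15, Cct6a -0.15, Hspa1b 0.31, Hspa4 -0.29, Hsp90aa1 -0.20, Hspe1 -0.19, Cct3 -0.16 and Dnajc22 -0.11. Without single rats Hspa8 ran from -0.026 to 0.17, Cct8 from -0.0066 to 0.16, Hspa1b from -0.67 to 0.41, Hsp90ab1 from -0.13 to 0.013, Dnajb1 from -0.20 to 0.046 and Hspa9 from -0.11 to 0.041.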

Other observations

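Genes whose levels over the 14 rats were most like that of Hspa1b were looked for after its values had been seen, among 15289 genes well above background, as a description with no test. Dnajb1 was the 11th by Pearson's r. Among those above it were Tns4 and Arrdc3 with r of 0.76, Btg2 and Junb with 0.75, Ier3 with 0.74, Egr1 with 0.73 and Jun with 0.72, and Fos followed with 0.70. Egr1, Junb, Jun and Fos encode transcription factors. Without the 2 rats with the most Hspa1b, NPD rat 7 and HPD rat 1, r was 0.81 for Egr1, 0.80 for Jun, 0.78 for Junb and 0.72 for Fos, and 0.40 for Dnajb1. Over all 15289 genes r had a median of -0.07 and ran from -0.48 to 0.43 once the 2.5% of genes at each end were set aside. The points share rats, arrays and the order of handling, and the part of any of these was not tested.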
